A study of Mus musculus with 32 samples.

Results

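The Hox cluster genes were taken as the protein-coding entries whose symbol is Hoxa, Hoxb, Hoxc or Hoxd followed by a paralog number from 1 to 13, which gave 39 of 55573 genes in the tables. The Hoxa cluster held 11 of them on chromosome 6, all on the minus strand, and the Hoxb cluster 10 on chromosome 11 (96194316 to 96368256 in mm10). The Hoxc cluster held 9 on chromosome 15 (102921103 to 103036852) and the Hoxd cluster 9 on chromosome 2 (74668310 to 74765142), the genes of these 3 clusters all on the plus strand. RNA had been sequenced from embryonic stem cells (ESC) of the mouse strain 129S5/SvEvBrd. Their Smarce1 gene, which encodes the SWI/SNF subunit BAF57, bears either the tag that the labels call MD or that tag with an R42A substitution. The labels do not spell out MD. From general knowledge it is taken here for the mitotic degron, a cyclin-derived tag that causes its protein to be degraded at mitotic exit, which R42A is taken to disable. The R42A clones served as the controls, so every group carries a tagged Smarce1. ESC cultures were kept on gelatin in medium with serum and LIF. They came from 4 R42A clones (A04, A10, A01, A02) and 4 MD clones (09, 30, 45, 47), with 3 libraries each. Neural cells, after 6 days in a medium named RHA-B in the labels, came from A04 and A10 (R42A) and from 09 and 30 (MD), with 2 libraries each.

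Hox genes encode homeodomain transcription factors that give cells of the embryo their position along the head to tail axis. Within a cluster the genes lie in the order of their paralog numbers, and low numbers are switched on earlier and further forward than high numbers, an arrangement called collinearity. In the neural tube, paralogs of the low numbers mark segments of the hindbrain, those of the middle numbers the cervical and thoracic spinal cord and those of the high numbers the lumbar and tail levels. The forebrain and midbrain lack Hox expression. In ESC the clusters are covered by the Polycomb mark H3K27me3 and are held nearly silent, and retinoic acid, Wnt and FGF signals open them as cells differentiate. SWI/SNF remodellers move nucleosomes and are known to oppose Polycomb at many developmental genes.

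Total counts per library ran from 38699951 to 96424439, of which the Hox genes took 238 to 1731. Hox levels were therefore low throughout, and many rest on few reads. Smarce1 RNA was similar in both ESC genotypes, at 109 ± 14.7 CPM in R42A and 117 ± 6.00 in MD (SD, n = 4 clones), and higher in MD neural cells, at 294 ± 6.65 against 231 ± 2.23 (SD, n = 2). Smarce1 lies on chromosome 11, whose genes had a median log2 change in MD of 0.45 in ESC and 0.48 in neural cells. The tag acts on the protein, so Smarce1 RNA does not check the label. The 8 pluripotency markers summed to 2710 to 4710 CPM in the ESC clones and 38.2 to 46.6 in the neural sums, and the 8 neural progenitor markers to 49.1 to 142 and 1430 to 1660. The labels of both stages therefore matched their markers. The labels name no library series, and the series used here were read from runs of library numbers. On that reading the ESC clones fall into a first library series (A04, A10, 09, 30) and a second (A01, A02, 45, 47). The neural libraries form a series of their own, so that the effects of stage and of library series cannot be told apart. The libraries that share a clone were treated as repeat cultures of it, and p-values measure the spread between clone sums. These are bulk cultures, in which fewer cells of a type and less RNA per cell cannot be told apart.

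Promoter sequences of the RefSeq set (GRCm38.p6, 300 bases, 250 before to 50 after the start) were matched for 22 of the 39 genes, in 24 windows. They are shown for 4 genes on which the comparisons below turn, because they differ widely in CpG content, the base pair step on which many Polycomb-bound promoters are built. Each CG is in capitals. The Hoxa2 window is chr6:52164782-52165081 on the minus strand, and the plus strand windows are chr11:96281655-96281954 for Hoxb8, chr2:74762730-74763029 for Hoxd1 and chr2:74667975-74668274 for Hoxd13.
Hoxa2: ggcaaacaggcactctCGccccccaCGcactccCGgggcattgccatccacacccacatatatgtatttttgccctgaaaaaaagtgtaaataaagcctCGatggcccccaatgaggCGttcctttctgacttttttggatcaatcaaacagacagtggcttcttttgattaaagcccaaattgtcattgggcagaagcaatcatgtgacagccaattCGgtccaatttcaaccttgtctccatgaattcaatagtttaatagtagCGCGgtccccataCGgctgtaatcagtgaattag
Hoxb8: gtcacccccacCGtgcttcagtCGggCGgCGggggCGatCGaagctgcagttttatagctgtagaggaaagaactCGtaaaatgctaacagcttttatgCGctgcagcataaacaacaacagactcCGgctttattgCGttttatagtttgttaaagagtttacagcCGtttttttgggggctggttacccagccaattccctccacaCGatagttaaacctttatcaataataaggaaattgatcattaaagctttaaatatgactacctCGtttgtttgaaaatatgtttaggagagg
Hoxd1: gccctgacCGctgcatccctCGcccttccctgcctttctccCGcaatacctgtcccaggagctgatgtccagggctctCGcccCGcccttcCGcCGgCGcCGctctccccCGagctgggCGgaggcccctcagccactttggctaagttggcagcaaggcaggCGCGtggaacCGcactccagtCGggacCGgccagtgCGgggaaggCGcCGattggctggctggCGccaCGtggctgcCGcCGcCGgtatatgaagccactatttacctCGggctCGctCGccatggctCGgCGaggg
Hoxd13: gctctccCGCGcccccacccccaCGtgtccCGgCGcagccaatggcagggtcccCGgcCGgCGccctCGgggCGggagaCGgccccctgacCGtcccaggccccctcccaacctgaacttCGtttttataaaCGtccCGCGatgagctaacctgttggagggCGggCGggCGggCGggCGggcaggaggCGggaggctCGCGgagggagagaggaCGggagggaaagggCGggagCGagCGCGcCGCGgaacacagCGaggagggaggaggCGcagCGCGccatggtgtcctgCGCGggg
The Hoxa2 and Hoxb8 windows held 9 and 13 CG steps, and the Hoxd1 and Hoxd13 windows 29 and 37. Over the 24 Hox windows the median was 14.5 (range 4 to 45), against 7 over all 32851 windows. A TATA box (TATAAA, either strand) lay in 4 windows, those of Hoxa10, Hoxb8, Hoxd4 and Hoxd13, or 16.7% against 13.6% of all windows. The nuclear receptor half-site AGGTCA, which retinoic acid receptors can bind, lay in 7 Hox windows, or 29.2% against 16.3%. The paired PBX and HOX motif TGATTGAT lay in 2 windows (Hoxa2 and 1 of Hoxd11), or 8.33% against 0.746%, and the CDX motif TTTATGG in 1 (Hoxd4), or 4.17% against 2.75%. A match of letters is a description and not a binding site.

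In R42A ESC 19 Hox genes lay under 0.1 CPM (the count as a share of the TMM-scaled library size) in the mean over clones, and few reached 1 CPM. Values by clone are given below in the order A04, A10, A01 and A02 for R42A ESC, 09, 30, 45 and 47 for MD ESC, A04 and A10 for R42A neural cells, and 09 and 30 for MD neural cells. Hoxc13 and Hoxd13, the last genes of their clusters, which act in hair and digits, stood in R42A ESC at 1.54, 2.0, 1.53 and 1.99 CPM and at 1.71, 0.897, 1.56 and 1.89 CPM. Hoxb9, a thoracic gene, stood at 2.08, 1.69, 1.12 and 1.52 CPM. These genes lie in 3 clusters and all near the high-number end. Divided by exon length, Hoxc13 stood at 0.717 CPM per kb, Hoxb9 at 0.622 and Hoxd13 at 0.610. Their clone values overlap, so their order among themselves is not beyond their spread. The quietest were Hoxb6 with 1 read over its 12 libraries, Hoxd3 with 2 and Hoxb5 with 3.

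**Figure D1:**
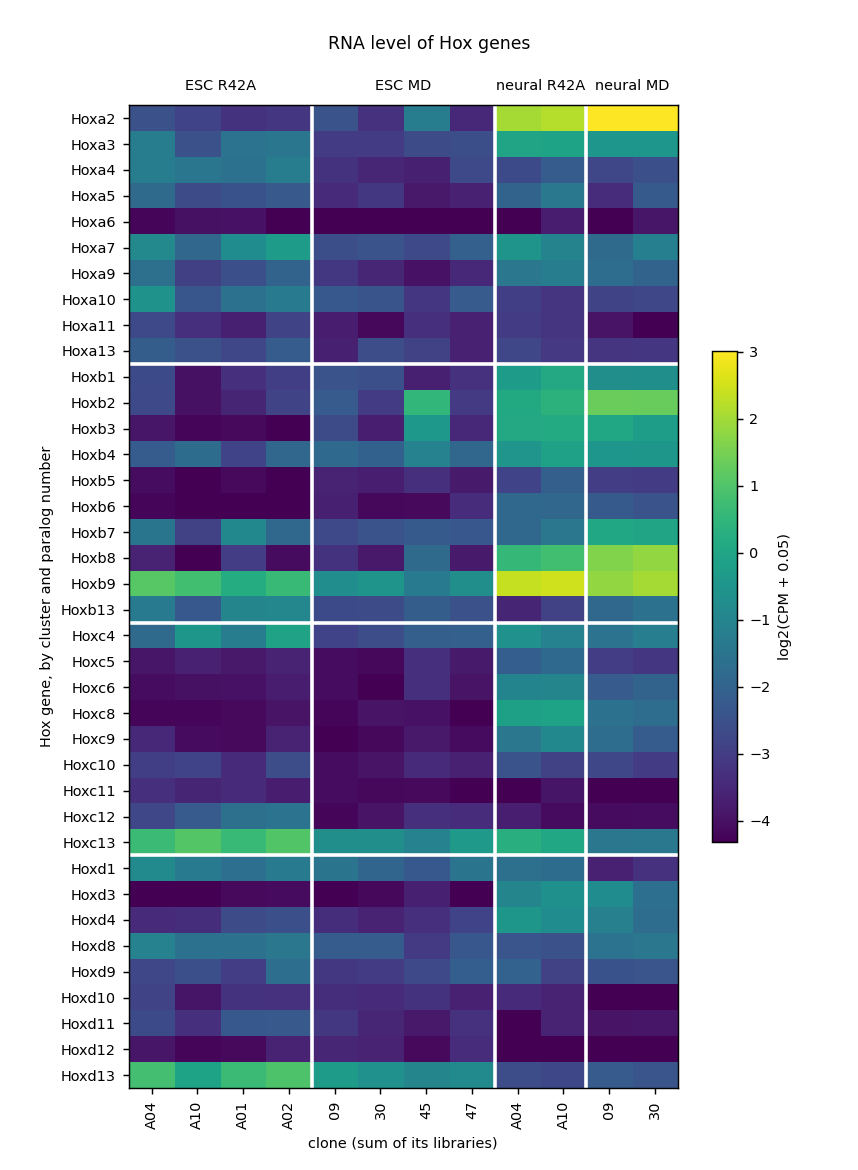
Heat map of the RNA level of the Hox genes described here (rows, by cluster and paralog number) in the 12 clone sums (columns), as log2(CPM + 0.05). In R42A ESC the bright rows are Hoxb9, Hoxc13 and Hoxd13, in neural cells Hoxa2, Hoxb9, Hoxb8 and Hoxb2, and the ESC column of clone 45 stands out at Hoxb2 and Hoxb3.

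MD ESC held less Hox RNA than R42A ESC in every clone. The summed level of the 39 genes was 15.8, 11.6, 12.1 and 15.0 CPM in the R42A clones and 6.21, 5.71, 7.39 and 5.95 CPM in the MD clones, without overlap. The MD mean was 0.464 of the R42A mean. By cluster this share was 0.307 for Hoxc, 0.405 for Hoxa, 0.474 for Hoxd and 0.749 for Hoxb. The Hoxb share was raised by clone 45. The Hoxb genes summed to 1.52, 1.36, 3.55 and 1.31 CPM in the MD clones and 3.18, 2.21, 2.32 and 2.61 CPM in the R42A clones. Of the 39 genes, 23 passed the filter on low counts in ESC. None of these was higher in MD and 14 were lower (edgeR quasi-likelihood test, adjusted p under 0.05), while over all 21567 genes tested 17.1% were higher and 19.4% lower. At an unadjusted p under 0.05, 1 Hox gene was higher and 18 were lower, and DESeq2 called Hoxb2 higher and 14 genes lower. The median log2 change of the 23 genes was -1.37, against -0.03 over all genes tested.

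The Hoxa genes gave 7 of the 14 lower calls. Hoxa7, a thoracic gene, stood at 0.498, 0.218, 0.537 and 0.775 CPM in R42A and 0.120, 0.132, 0.104 and 0.188 CPM in MD (log2 change -1.83 ± 0.34, adjusted p = 0.00347). Hoxa3, which acts in the pharyngeal arches and caudal hindbrain, stood at 0.377, 0.128, 0.296 and 0.318 CPM in R42A and 0.0741, 0.0742, 0.111 and 0.120 CPM in MD. Its lowest R42A clone, A10, lay just above the highest MD clone, and the log2 change was -1.58 ± 0.34 (adjusted p = 0.00713). Hoxa4, a cervical gene, fell most within the cluster, with R42A clones at 0.289 to 0.382 CPM and MD clones at 0.0279 to 0.105 CPM (log2 change -2.61 ± 0.36, adjusted p = 0.000773). Hoxa5, Hoxa9 and Hoxa10 were also called lower, with log2 changes of -2.01, -2.10 and -1.45. The Hoxa10 call, with an adjusted p of 0.0365, was lost when any single clone other than A10 was left out, at adjusted p values from 0.0504 to 0.151. Hoxa2 and Hoxa13 did not pass, with log2 changes of 0.74 ± 0.68 and -1.13 ± 0.46. Hoxa6, which was not tested, had 6 reads over the R42A libraries and 0 over the MD libraries, where 0 reads allows up to 0.00433 CPM.

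All 3 Hoxc genes tested in ESC were lower in MD, and 6 of the cluster's genes had too few reads. Hoxc13 stood at 0.561, 0.562, 0.425 and 0.737 CPM in MD, where the lowest R42A clone had 1.53 CPM (log2 change -1.63 ± 0.20, adjusted p = 0.000485). Hoxc4, which is active in cervical levels, stood at 0.237, 0.684, 0.372 and 0.883 CPM in R42A and 0.0880, 0.117, 0.181 and 0.188 CPM in MD (log2 change -1.97 ± 0.40, adjusted p = 0.00554). Hoxc12, the neighbour of Hoxc13, had the steepest fall among the 23 genes tested, from 0.0978 to 0.294 CPM in R42A to 0.00463 to 0.0488 CPM in MD (log2 change -2.99 ± 0.37, adjusted p = 0.000496). In the Hoxd cluster, Hoxd13 fell from the values above to 0.760, 0.599, 0.453 and 0.519 CPM (log2 change -1.37 ± 0.27, adjusted p = 0.00492). Hoxd8 fell with a log2 change of -1.26 ± 0.27 (adjusted p = 0.00715), from 0.428, 0.291, 0.289 and 0.325 CPM to 0.171, 0.170, 0.0697 and 0.150 CPM. Hoxd1, Hoxd9 and Hoxd11 did not pass, with log2 changes of -0.63, -0.46 and -1.27.

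The Hoxb cluster gave 2 lower and 0 higher calls among its 6 genes tested in ESC. At its high-number end, Hoxb9 stood at 0.551, 0.647, 0.348 and 0.564 CPM in MD, all below the lowest R42A clone at 1.12 CPM (log2 change -1.60 ± 0.20, adjusted p = 0.000457). Hoxb13 was lower too, at 0.107 to 0.174 CPM against 0.154 to 0.473 CPM in R42A (log2 change -1.41 ± 0.29, adjusted p = 0.00596). From Hoxb1 to Hoxb8 the MD mean was above the R42A mean for every gene except Hoxb7, and Hoxb3, Hoxb5 and Hoxb6 had all MD clones above all R42A clones. Those 3 levels were very low: Hoxb5 had 3 reads over the 12 R42A libraries and 22 over the 12 MD libraries, and Hoxb6 had 1 and 14. Without the filter on low counts all 39 genes could be tested, and 2 were called higher (Hoxb5 and Hoxb6) and 17 lower, against 9.78% and 11.6% of 35409 genes. Over the same 39 genes, MD clones lay all below R42A clones for 13 and all above for 3, against 7.16% and 7.63% of the 35409 genes. The remaining 23 overlapped.

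Clone 45 carried most of the higher Hoxb levels. Hoxb2, which marks the hindbrain from the third segment back, stood at 0.102, 0.0128, 0.0345 and 0.0930 CPM in R42A and 0.167, 0.0742, 1.41 and 0.0677 CPM in MD. Hoxb3, its neighbour, stood at 0.0186, 0.00427, 0.00689 and 0 CPM and at 0.111, 0.0265, 0.704 and 0.0376 CPM. The 3 libraries of clone 45 held 71, 90 and 42 Hoxb2 reads, whereas no other ESC library held more than 17. The high value of clone 45 was therefore present in each of its libraries. The antisense transcript Hoxb3os overlaps 52.9% of the Hoxb3 exons and 27.3% of the Hoxb2 exons, and it too was highest in clone 45, at 0.989 CPM against at most 0.0973 in the other ESC clones. Whether counting used strand is not stated, so the share of sense and antisense reads cannot be told apart. The Hoxb2 change of 2.36 ± 1.00 (adjusted p = 0.0980) became 0.77 without clone 45 (adjusted p = 0.419). Hoxb4 stood at 0.168, 0.252, 0.0896 and 0.217 CPM and 0.232, 0.191, 0.425 and 0.218 CPM, with overlap (log2 change 0.51 ± 0.37, adjusted p = 0.315). Hoxb7 lay at 0.307, 0.0855, 0.482 and 0.225 CPM and 0.102, 0.132, 0.160 and 0.150 CPM, with overlap through clone A10 (log2 change -0.96 ± 0.42, adjusted p = 0.104).

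**Figure D2:**
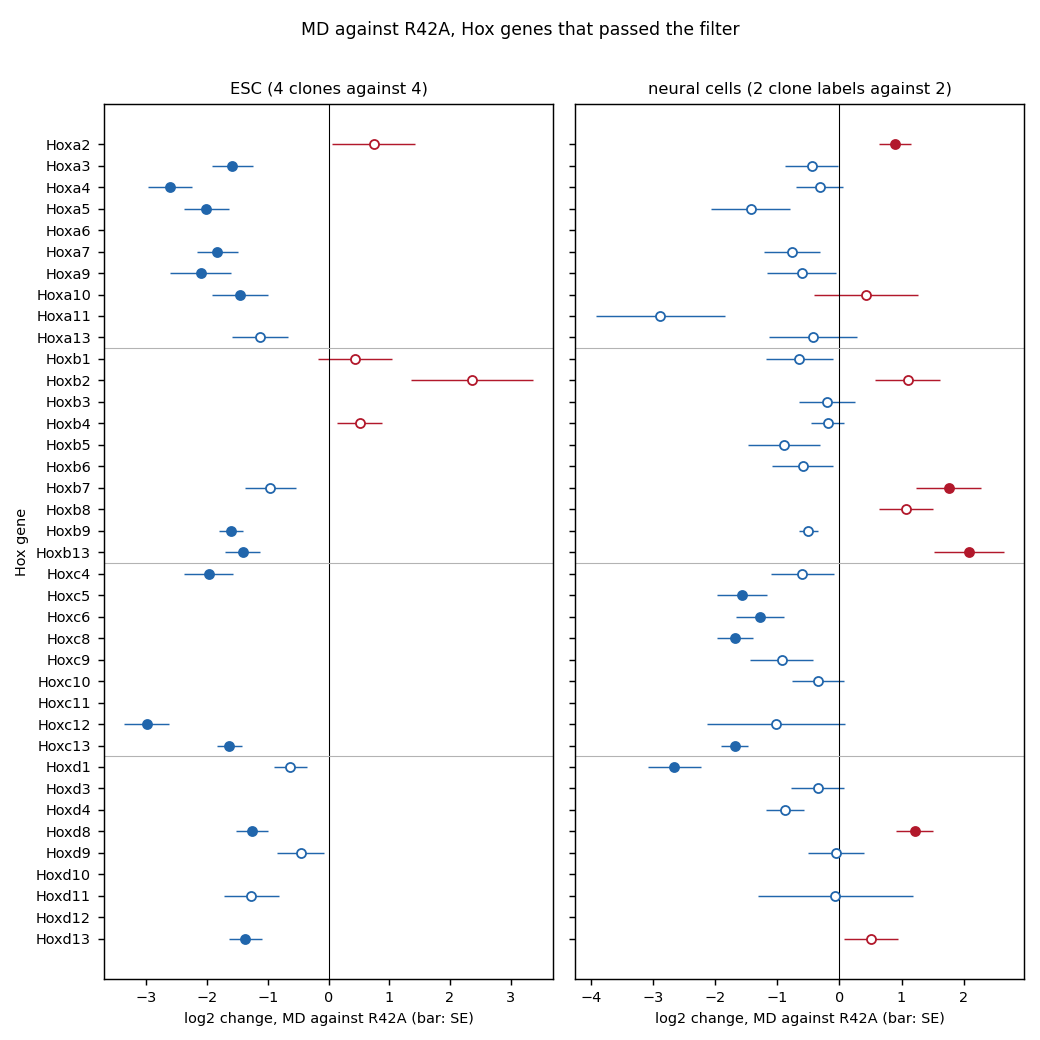
Log2 change of MD against R42A (x axis, bars are SE) for the Hox genes that passed the filter (rows), in ESC on the left and neural cells on the right. Filled points passed an adjusted p of 0.05; in ESC every filled point lies below 0, and in neural cells 4 lie above and 5 below.

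Grouped by paralog number, 2 of 6 tested genes of paralogs 1 to 3, 5 of 7 of paralogs 4 to 8 and 7 of 10 of paralogs 9 to 13 were lower in MD ESC. The 4 genes of paralog group 13 summed to 3.77, 3.18, 3.65 and 4.52 CPM in R42A and 1.45, 1.39, 1.14 and 1.41 CPM in MD. They took 27.8% of all Hox reads in R42A and 21.3% in MD. Within the library series the direction was the same for the called genes. All 14 had a log2 change below 0 in each of the series. In the first and the second, 4 and 13 of the 14 were called. The first series alone gave 5 lower and 0 higher calls among 27 Hox genes tested, where 7.84% of all genes were called in either direction. The second alone gave 14 lower and 0 higher among 23, where 23.2% of all genes were called in either direction. Chromosome 11, which holds the Hoxb cluster, stood higher in MD as a whole, with a median log2 change of 0.45 in ESC and 0.48 in neural cells. The medians of chromosomes 2, 6 and 15 lay between -0.14 and 0.00. Scaling each chromosome separately left 14 lower calls in ESC, among which Hoxb7 replaced Hoxa10, with values of -1.44 (adjusted p = 0.0346) and -1.34 (adjusted p = 0.0584).

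Smooth muscle and mesenchyme markers moved in the opposite direction to the Hox genes in ESC. Their 8 genes summed to 6.30 to 26.9 CPM in R42A and 64.2 to 112 CPM in MD, with 7 of 8 higher, while the 12 mesoderm markers summed to 3.78 to 5.86 and 4.76 to 11.5 CPM. Among the pluripotency markers 6 of 8 were lower and 1 higher. The part of these cells in the Hox result was not tested.

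**Figure D3:**
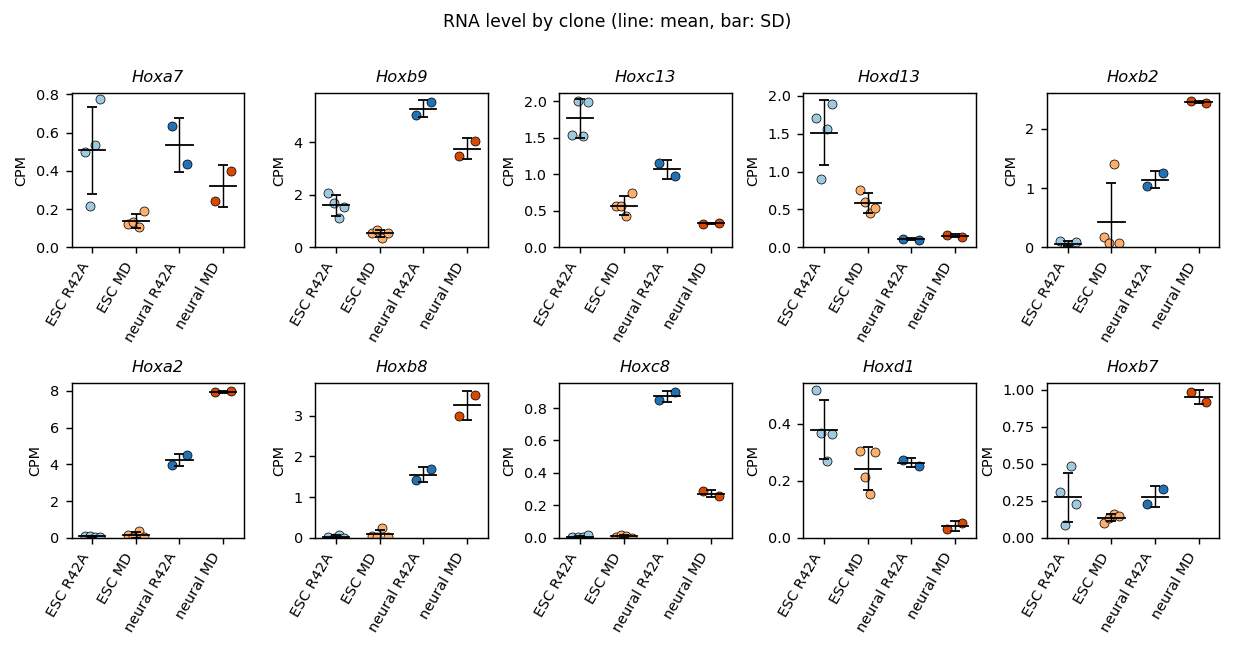
RNA level in CPM (y axis, from 0) of 10 Hox genes in each clone (points) of the 4 groups (x axis), with the mean as a line and the SD as a bar. Hoxa7, Hoxb9, Hoxc13 and Hoxd13 lie lower in MD ESC than in every R42A clone, Hoxb2 has a single high MD clone at 1.41 CPM, and Hoxa2 and Hoxb8 are highest in neural MD.

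Neural cells of the R42A clones held more Hox RNA than ESC, and a different set of genes led. The summed level of the 39 genes was 24.1 and 26.4 CPM in R42A neural cells and 26.2 and 27 CPM in MD neural cells. Of 35 genes tested against ESC of the same clones, 16 rose and 8 fell in R42A, where 37.9% and 40.4% of all 23844 genes rose and fell. In MD 22 rose and 4 fell, where 40.3% and 41.0% of all genes did, and 14 rose and 2 fell without clone 09, as without clone 30. The Hoxb cluster gave 8 rises in each genotype. Paralogs 1 to 3 gave 6 rises and 1 fall in R42A and 6 and 2 in MD, and paralogs 4 to 8 gave 8 and 2, and 12 and 0. Paralogs 9 to 13 gave 2 rises and 5 falls in R42A, and 4 and 2 in MD. Across the clusters the rises thus lay mainly among the low and middle paralog numbers, with Hoxb9 as the largest exception in level.

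Hoxa2, which patterns the second branchial arch and the hindbrain, stood at 3.99 and 4.49 CPM in R42A neural cells, from 0.126 and 0.0897 CPM in ESC of the same clones (log2 change 5.25 ± 0.33, adjusted p = 5.88e-06). In MD it stood at 7.92 and 8.0 CPM, from 0.134 and 0.0530 CPM (log2 change 6.29 ± 0.35, adjusted p = 2.51e-06). Hoxb9 stood at 5.05 and 5.53 CPM in R42A and 3.49 and 4.04 CPM in MD neural cells (log2 changes from ESC of 1.44 ± 0.16 and 2.57 ± 0.17). Divided by exon length, Hoxa2 and Hoxb9 led both neural genotypes, at 2.39 and 2.06 CPM per kb in R42A and 4.49 and 1.46 CPM per kb in MD. Hoxb8, a thoracic gene, rose to 1.42 and 1.69 CPM in R42A and 3.0 and 3.51 CPM in MD, from at most 0.0556 CPM in ESC of these clones. Hoxb2 rose to 1.04 and 1.25 CPM and to 2.47 and 2.44 CPM. Hoxb3 stood at 1.03 and 1.06 CPM and at 0.998 and 0.820 CPM. All of these groups lay clear of the ESC values of the same clones. Hoxb1, which is kept on in the fourth segment of the hindbrain, stood at 0.778 and 1.02 CPM in R42A and 0.567 and 0.582 CPM in MD neural cells, and rose in both. Hoxb4 also rose in both, to 0.663 and 0.872 CPM and to 0.673 and 0.679 CPM, as did Hoxa3, to 0.929 and 0.897 CPM and 0.665 and 0.670 CPM. The MD rise of Hoxb1 did not pass without 09 or 30 (adjusted p = 0.157 and 0.179), nor that of Hoxb4 without 30 (adjusted p = 0.0545).

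Several rises started from almost no reads in ESC, and their size is given from the counts with an exact 95% interval that covers counting error only. Hoxd3, a paralog of Hoxa3, had 121 reads in R42A neural cells and 0 in ESC of the same clones, at least 81.5-fold higher against a floor of 3 reads over the group. In MD it had 102 reads against 1 (ratio 181, interval 31.8 to 7220). It stood at 0.451 and 0.587 CPM in R42A and 0.537 and 0.273 CPM in MD neural cells. Of its exons, 53.1% are shared on the same strand with the annotated gene Gm28230, which stood at 0.557 ± 0.0758 CPM in R42A neural cells and 0.268 ± 0.144 CPM in MD (SD, n = 2), so the split of reads between them is uncertain. The same holds for Hoxd4, which shares 39.1% of its exons and stood at 0.681 and 0.545 CPM in R42A and 0.408 and 0.256 CPM in MD, having risen in both. Hoxc8, a thoracic gene, had 203 reads in R42A neural cells against 2 in ESC (ratio 205, interval 56.0 to 1700). Hoxb6 had 51 against 1 in R42A, Hoxc9 had 53 against 1 in MD, and Hoxc6 had 45 against 2 in MD.

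Hoxc13 and Hoxd13, which were among the leading genes of R42A ESC, fell with neural culture, whereas Hoxb9 rose as given above. Hoxd13 stood at 0.115 and 0.101 CPM in R42A neural cells and 0.166 and 0.141 CPM in MD, falls of -3.63 ± 0.39 and -2.21 ± 0.37 on the log2 scale. Hoxc13 fell less, with log2 changes of -0.78 ± 0.20 in R42A and -0.84 ± 0.22 in MD. Its fall in R42A was -0.46 without A10 (adjusted p = 0.0856), and its fall in MD did not pass without 09 or 30 (adjusted p = 0.119 and 0.107). Hoxb13 and Hoxc12 fell in R42A, with log2 changes of -2.10 and -2.94, which became -0.93 for Hoxb13 without A04 (adjusted p = 0.136) and -1.90 for Hoxc12 without A10 (adjusted p = 0.0835). Hoxd12 had no read in any neural library, which allows up to 0.0134 CPM in R42A and 0.0130 CPM in MD. Hoxa4 and Hoxd8 took opposite directions: in R42A they fell, by log2 changes of -1.39 and -1.47, and in MD they rose by 1.15 and 0.78. The Hoxa4 fall did not pass without A04 (-0.97, adjusted p = 0.0705). With the clone label as a block, both MD rises were lost, at adjusted p values of 0.0759 and 0.0507. They were also lost with DESeq2 (adjusted p = 0.130 and 0.160), without the filter (0.0525 and 0.0633) and without 09 or 30.

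**Figure D4:**
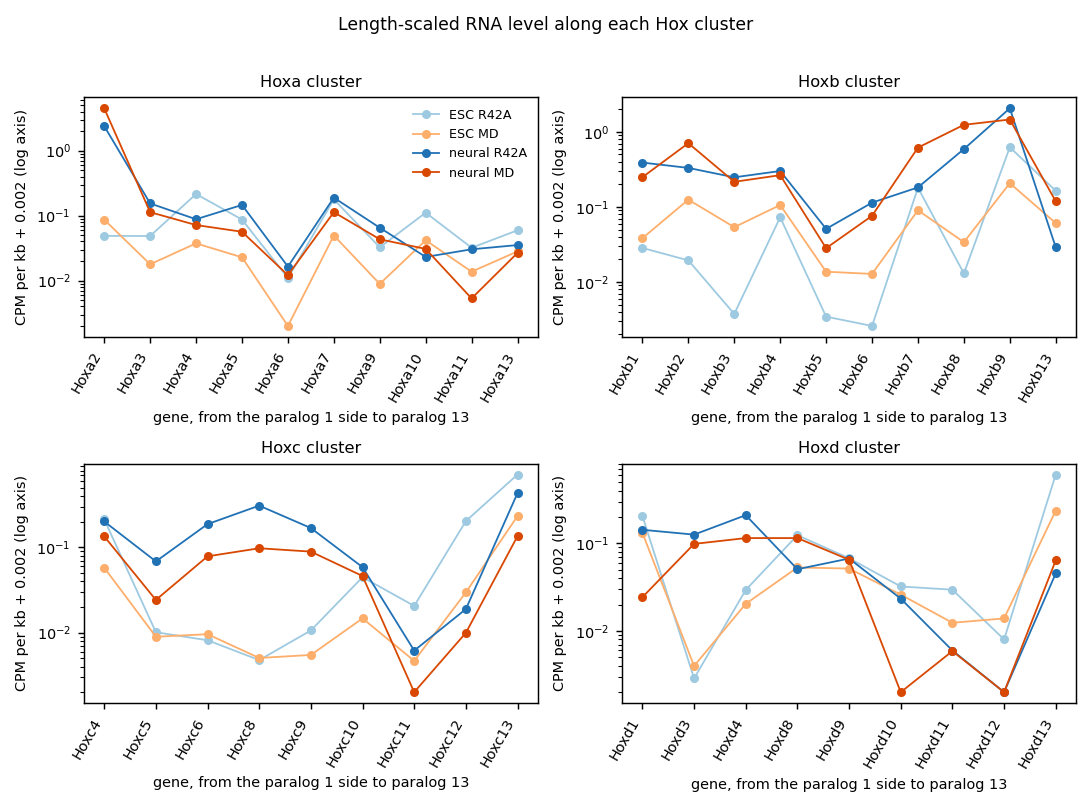
Length-scaled RNA level (CPM per kb + 0.002, log axis) along each of the 4 Hox clusters, from the paralog 1 side to paralog 13, with 1 line for each group mean. In neural cells the peaks lie at Hoxa2 and at Hoxb8 to Hoxb9, while Hoxc13 and Hoxd13 at the far end are highest in R42A ESC.

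Neural MD and R42A cells had nearly the same summed Hox level, with an MD to R42A ratio of 1.05, but differed gene by gene. Of 35 genes tested, 4 were higher in MD and 5 lower, against 17.4% and 16.3% of all 23844 genes. Those shares of the Hox genes are not above those of all genes. The 4 higher genes were Hoxa2, Hoxb7, Hoxb13 and Hoxd8. Hoxa2 lay at 7.92 and 8.0 CPM against 3.99 and 4.49 (log2 change 0.90 ± 0.26, adjusted p = 0.0330). Hoxb7 lay at 0.983 and 0.917 CPM in MD against 0.230 and 0.327 CPM (log2 change 1.76 ± 0.52, adjusted p = 0.0380). Hoxd8 lay at 0.295 and 0.326 CPM against 0.142 and 0.126 CPM (log2 change 1.21 ± 0.30, adjusted p = 0.0213), and DESeq2 did not call it (adjusted p = 0.0540). Hoxb13 was 2.09 ± 0.56 higher on the log2 scale (adjusted p = 0.0275), at 0.227 and 0.291 CPM against 0.0354 and 0.0839 CPM. The calls of both Hoxb genes were lost with each chromosome scaled separately, at 1.32 (adjusted p = 0.107) and 1.65 (adjusted p = 0.0739). Hoxb2 and Hoxb8 were also above R42A in both MD clones, with log2 changes of 1.10 ± 0.52 and 1.07 ± 0.44, but did not pass (adjusted p = 0.150 and 0.106). Their calls depended on the fit. edgeR on the neural sums alone called both higher (adjusted p = 5.82e-09 and 2.61e-09), and DESeq2 called Hoxb8 (adjusted p = 0.0149) but not Hoxb2. With each chromosome scaled separately the changes were 0.65 and 0.62, and neither passed (adjusted p = 0.39 and 0.33).

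The Hoxc cluster gave 4 of the 5 lower calls in neural cells. Hoxc8 lay at 0.287 and 0.256 CPM in MD against 0.849 and 0.897 CPM (log2 change -1.68 ± 0.29, adjusted p = 0.00438). Hoxc13 lay at 0.325 and 0.335 CPM against 1.16 and 0.973 CPM (log2 change -1.69 ± 0.22, adjusted p = 0.00138). Hoxc5 and Hoxc6, of cervical and upper thoracic levels, had log2 changes of -1.57 ± 0.40 and -1.28 ± 0.39 (adjusted p = 0.0212 and 0.0406), and DESeq2 did not call them (adjusted p = 0.141 and 0.108). The summed Hoxc level was 3.72 and 3.58 CPM in R42A and 1.51 and 1.49 CPM in MD. Every one of the 9 Hoxc genes had a lower mean in MD neural cells, and for 6 both MD clones lay below both R42A clones. For Hoxc11 the lower mean rests on 2 reads in R42A against 0 in MD, and for Hoxc12 on 4 against 2. Hoxc10 changed little (log2 change -0.35 ± 0.42, adjusted p = 0.578). The fifth lower call was Hoxd1, the Hoxd paralog of Hoxb1, at 0.0302 and 0.0529 CPM against 0.274 and 0.252 CPM (log2 change -2.66 ± 0.43, adjusted p = 0.00346). Over the 39 genes both MD clones lay below both R42A clones for 21 and above for 8, where 27.8% and 27.4% of 36424 genes did. Hoxa7 stood at 0.637 and 0.436 CPM in R42A and 0.242 and 0.397 CPM in MD, and Hoxc4 at 0.601 and 0.428 CPM and 0.295 and 0.388 CPM, and neither passed. Hoxb9 lay below R42A in both MD clones and fell just short (log2 change -0.50 ± 0.16, adjusted p = 0.0502). It was called lower by DESeq2 (adjusted p = 0.0295) and with each chromosome scaled separately (-0.94, adjusted p = 0.00696).

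All 9 calls were lost without either MD clone, while their log2 changes kept their direction. Leaving out 09 or 30 left 0 Hox calls in edgeR, with 3 higher and 7 lower at an unadjusted p under 0.05 without 09, and 2 and 6 without 30. Over all genes the share called then fell from 33.7% to 6.52% and 6.21%. The Hoxc13 change, for example, was -1.68 without 09 (adjusted p = 0.0630) and -1.71 without 30 (adjusted p = 0.0614). Leaving out A04 or A10 gave 10 or 8 lower calls, and of the 9 calls Hoxc5 alone was lost, without A10 (-1.35, adjusted p = 0.0875). The 8 neuron markers summed to 766 to 790 CPM in R42A neural cells and 2080 to 2100 CPM in MD, with 8 of 8 higher. The 8 neural progenitor markers summed to 1650 to 1660 and 1430 to 1450 CPM, the 8 endoderm markers to 254 to 290 and 126 to 136 CPM, and the 6 neural crest markers to 19.2 to 19.5 and 40.5 to 43.0 CPM. The part of this difference in cell makeup in the Hox result was not tested.

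The MD effect, meaning the difference between MD and R42A clones, itself differed between the stages for 6 of the 35 genes, 5 with a higher value in neural cells and 1 with a lower value, where 11.9% and 11.1% of all genes did. Hoxb13 and Hoxd8 were lower in MD in ESC and higher in neural cells, with differences of 3.26 ± 0.74 (adjusted p = 0.0204) and 2.25 ± 0.41 (adjusted p = 0.00903). Hoxa4 and Hoxb9, which were lower in MD ESC, had differences of 2.54 ± 0.53 (adjusted p = 0.0149) and 1.13 ± 0.23 (adjusted p = 0.0140). Hoxc10, which had too few reads for the ESC test, had a difference of 2.33 ± 0.68 (adjusted p = 0.0469). Its ESC sums held 2 and 3 reads in MD clones 09 and 30, against 17 and 21 in A04 and A10. That call was lost in edgeR without the filter (adjusted p = 0.0815). Hoxd1 was lower in MD by more in neural cells, with a difference of -1.92 ± 0.53 (adjusted p = 0.0408). With the clone label as a block, Hoxc10 and Hoxd1 were no longer called, at adjusted p values of 0.115 and 0.0758, and DESeq2 did not call Hoxd1 (adjusted p = 0.0591). Leaving out 09 or 30 left 0 calls in edgeR, with 5 higher and 1 lower, and 5 and 3, at an unadjusted p under 0.05. Without A10 there were 10 higher calls, though Hoxc10 was lost (1.93, adjusted p = 0.144), and without A04 5 lower ones. Hoxc13, in contrast, was lower in MD by -1.63 in ESC and -1.69 in neural cells, and the difference of -0.06 ± 0.29 did not pass (adjusted p = 0.922).

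Of 44 non-coding transcripts annotated inside the clusters, 5 were tested in ESC and 11 in neural cells. The most abundant transcript of any Hox cluster in ESC was among them: Gm53, a long non-coding RNA between Hoxb9 and Hoxb13, stood at 15.5, 15.4, 18.6 and 17.4 CPM in R42A ESC (4.20 CPM per kb in the mean) and 4.07, 4.77, 4.61 and 6.04 CPM in MD (log2 change -1.79 ± 0.10, adjusted p = 2.41e-05). In neural cells it stood at 0.522 and 0.486 CPM in R42A and 0.121 and 0.150 CPM in MD (log2 change -1.90 ± 0.19, adjusted p = 0.000502). Its fall in MD was thus of like size at both stages, and it went the same way as Hoxb9 and Hoxb13 in ESC. Hotairm1, which is transcribed from the low-number end of the Hoxa cluster, was lower in MD ESC (log2 change -0.97 ± 0.29, adjusted p = 0.0288). Hoxaas2, antisense to Hoxa3, overlaps 8.36% of the Hoxa3 exons, and whether counting used strand is not stated. Hoxaas2 was higher in MD neural cells, at 1.69 and 1.73 CPM against 0.557 and 0.520 CPM (log2 change 1.66 ± 0.22, adjusted p = 0.00168). Of the 39 Hox genes, 16 share exon bases with another annotated gene, 9 on the same strand and 10 on the opposite strand.

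Among the protein-coding genes around the Hoxa, Hoxc and Hoxd clusters, 9 of 27 tested were lower in MD ESC and 2 higher, against 19.4% and 17.1% of all genes. Around the Hoxb cluster, on chromosome 11 with its higher median of 0.45, 1 of 17 was lower and 11 were higher. Within 500 kb of the Hoxa cluster 3 of 4 tested neighbours were lower and none higher, with Skap2 at -0.59 and Hibadh at -0.43 on the log2 scale. Around the Hoxb cluster the largest changes were Gip at 2.68 and Calcoco2 at 1.95. The R42A ESC mean of Gip lay under 0.1 CPM. Around the Hoxc cluster 2 of 21 were higher and 5 lower, and around the Hoxd cluster 1 of 2, Mtx2, was lower at -0.26. In neural cells Evx1, the homeobox gene beside Hoxa13, was lower in MD (log2 change -1.57 ± 0.41, adjusted p = 0.0246) and its paralog Evx2, beside Hoxd13, was higher (1.42 ± 0.35, adjusted p = 0.0186).

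**Figure D5:**
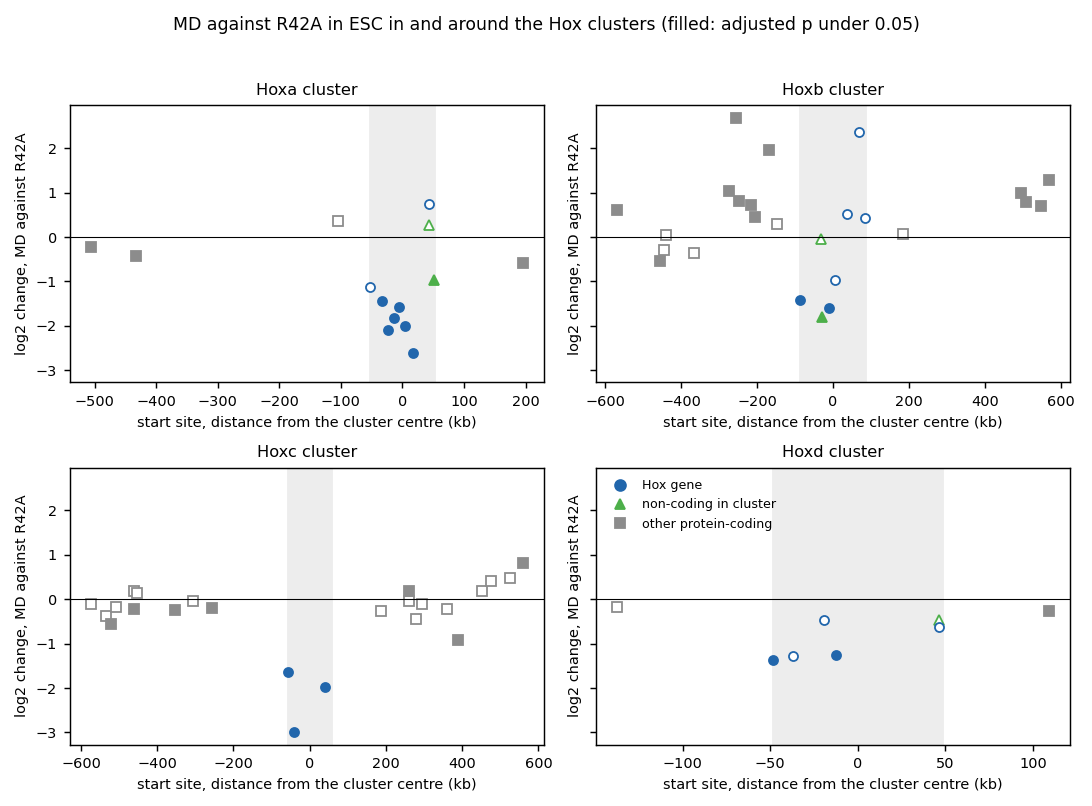
Log2 change of MD against R42A in ESC (y axis) for Hox genes, non-coding transcripts of the cluster and other protein-coding genes within 500 kb, by distance of the start site from the cluster centre in kb (x axis, grey band is the cluster, the paralog 1 side on the right). Filled marks passed an adjusted p of 0.05; the neighbours of the Hoxb cluster lie mostly above 0, 11 of 17 as called genes.

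Genes that act on Hox clusters did not move in 1 direction. Of the retinoic acid genes, 5 of 16 tested were higher in MD ESC and 3 lower, and 4 and 4 of 18 in neural cells. Cyp26a1, which degrades retinoic acid, was higher in MD at both stages (log2 changes 1.44 ± 0.25 and 0.67 ± 0.13), whereas Rarb, a receptor that retinoic acid induces, and Crabp1, which binds it, were lower in ESC (-1.11 ± 0.33 and -1.20 ± 0.14). In neural cells Cyp26b1 stood at 225 ± 10.2 CPM in MD against 36.9 ± 1.94 CPM (SD, n = 2). Aldh1a2, which makes retinoic acid, did not pass at either stage. Of the Cdx and posterior genes, 6 of 15 were higher and 1 lower in ESC, and 1 of 16 was higher and 7 lower in neural cells. The Cdx factors switch on middle and posterior Hox genes. Cdx1 was lower in MD at both stages (log2 changes -2.33 ± 0.30 and -2.27 ± 0.55). Its mean in MD neural cells lay under 0.1 CPM. Cdx2 was higher in MD ESC, at 0.260 ± 0.114 against 0.0761 ± 0.0443 CPM (SD, n = 4), and lower in MD neural cells, at 2.76 ± 0.0696 against 8.0 ± 0.0891 CPM (SD, n = 2). Cdx4 was higher in ESC (1.05 ± 0.33), and the mesoderm gene T was higher there too (1.95 ± 0.36). In neural cells the FGF ligand gene Fgf17 was lower (-2.63 ± 0.29). Of 6 ParaHox genes, which include the Cdx genes, 2 of 5 tested were higher and 1 lower in ESC, and 2 of 6 higher and 2 lower in neural cells, where Gsx1 was 2.14 ± 0.36 higher.

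The TALE proteins bind DNA together with Hox proteins, and 3 of their 9 genes were higher and 1 lower in MD ESC, 4 and 1 in neural cells. Meis1 was higher at both stages (log2 changes 1.53 ± 0.39 and 0.83 ± 0.08), Pknox2 in ESC (1.39 ± 0.23) and Pbx3 in neural cells (0.52 ± 0.11). Of the hindbrain segment factors, 2 of 10 were higher and 2 lower in ESC, and 3 of 11 higher and 1 lower in neural cells. Egr2, which sets up the third and the fifth hindbrain segment, was higher in MD ESC (1.67 ± 0.33) and did not pass in neural cells (0.13 ± 0.33). Its mean in R42A ESC lay under 0.1 CPM. Vgll3, a transcription cofactor, was higher in ESC (1.64 ± 0.24) and lower in neural cells (-1.95 ± 0.27). Of the forebrain and midbrain factors, 3 of 14 were higher and 3 lower in ESC, with Six3 at 3.64 ± 0.84 and Dmbx1 at -2.07 ± 0.22. The R42A ESC mean of Six3 lay under 0.1 CPM. In neural cells 2 of 15 were higher and 7 lower. There Otx2, En1 and En2 were lower (log2 changes -0.71 ± 0.11, -1.85 ± 0.58 and -1.55 ± 0.29) and Lhx2 was higher (1.86 ± 0.10).

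Of 26 Polycomb genes, 7 were higher and 6 lower in MD ESC, and 8 and 5 in neural cells. Suz12, a core subunit of the complex that writes H3K27me3, was higher at both stages (log2 changes 0.88 ± 0.08 and 0.46 ± 0.10). It lies on chromosome 11. Phf19, a partner of that complex, was higher in ESC (0.76 ± 0.25), and Cbx7, a reader of the mark, was higher in neural cells (0.89 ± 0.06). Of 11 trithorax and H3K27 demethylase genes, which act against Polycomb, 0 were called in ESC by edgeR (1 at an unadjusted p under 0.05) and 0 by DESeq2, and 2 were higher and 3 lower in neural cells, with Kdm6b at 0.75 ± 0.10 and Psip1 at -0.36 ± 0.07.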

How the data were processed

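The authors deposited 1 table of expected counts per gene for each of 32 libraries, not normalised. RSEM 1.3.0, STAR 2.7.1a, Trim Galore 0.60, DESeq2 and the build mm10 are listed, per the submitters' processing notes, without their roles. The annotation release and the use of strand are not given in the sources used here. Positions and exon lengths came from GENCODE M21. ERCC entries (92 per library, with a total count of 0) were left out.

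Expected counts were rounded and summed over the libraries of a clone. Libraries of a clone differed by more than counting noise. Genes were tested with edgeR 4.0.16 in R 4.3.3 by its quasi-likelihood method, after TMM scaling and the filterByExpr filter (minimum count 10). P-values were adjusted over all genes by Benjamini-Hochberg. In ESC the fit held 8 clone sums and a term for library series. The neural, stage and difference tests came from 1 fit of 4 groups on 8 sums of the 4 clone labels present at both stages. Log2 changes carry their standard error (SE). The code was tested on simulated data, where the neural design recovered 2-fold changes less often than the ESC design. Levels are CPM from TMM library sizes over all 12 sums. Floors of 3 counts and intervals cover counting error only.

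Values by clone were printed for genes with at least 0.5 CPM in a group mean, and also for Hoxb13, Hoxd1 and Hoxd8, which lay below that level in every group. The largest 2 called changes of each list were named, besides a fixed set. Some genes are not reported here by name and enter only counts and sums. The Hox genes, the lists and the tests were chosen with earlier results of these data known. The clone label pairs ESC and neural sums by cell line. The deviations of paired sums correlated at -0.0197 (A04, A10) and 0.0162 (09, 30) over 23844 genes. Alternatives were other scalings, no filter, DESeq2 1.42.0, single libraries, blocks, and leaving out each clone.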

Additional observations from a re-analysis of the deposited data

Results flagged for a closer look

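In 3 cases a single ESC clone stood apart from the other clones of its group, by a gap whose share of the group's range is above Dixon's critical value for 4 samples. Chance gives about 1 in 20 groups, and 32 groups were examined. Clone 45 stood above the other MD clones at Hoxb2 (0.926 of the range), Hoxb3 (0.875) and Hoxb8 (0.840). These genes share a cluster and a library set, so the flags are not independent. For 6 genes the MD effect differed between the stages in edgeR, as the log2 value in neural cells less that in ESC. These were Hoxa4 (2.54), Hoxb9 (1.13), Hoxb13 (3.26), Hoxc10 (2.33), Hoxd8 (2.25) and Hoxd1 (-1.92).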

How the results depend on the processing

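The 14 lower Hox calls in ESC became 17 without the filter, 5 in the first library series alone and 9 with single libraries, where 10 genes were tested, with or without the replicate block. The 0 higher calls became 2 without the filter and 1 with DESeq2. Leaving out 1 clone gave 13 to 16 lower and 0 to 1 higher calls. In neural cells the 4 higher calls became 2 with each chromosome scaled separately, and Hoxb9 was then added to the lower calls. The 5 lower calls became 14 with the neural sums alone and with single libraries, with or without the replicate block. Leaving out 1 clone gave 0 to 6 higher and 0 to 10 lower calls. For the rises and falls between the stages, leaving out 1 clone gave 16 to 19 and 5 to 8 in R42A, and 14 to 23 and 2 to 5 in MD. For the difference of the MD effect it gave 0 to 10 higher and 0 to 5 lower calls, and the clone label as a block gave 0 lower calls. That block changed no other count by over 1.5 times. The replicate numbers of the ESC libraries did not pair them throughout, with correlations between the genotypes from -0.234 to 0.516. Number 3 of the first series gave 0.516, and numbers 2 and 3 of the second gave 0.441 and 0.361. The remaining ESC numbers gave at most 0.0614, and the neural libraries gave 0.0382.

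Reversed signs arose only among genes that were not called. In ESC Hoxa2 (0.74) became -0.14 in the first series alone and ran from -0.29 to 1.15 with 1 clone left out, and Hoxb1 (0.44) became -0.03 with each chromosome scaled separately and ran from -0.07 to 0.85. With 1 clone left out, Hoxb4 ran from -0.36 to 0.03 and Hoxd3 from -0.93 to 0.05 in neural cells, and Hoxb7 from -0.46 to 1.86 and Hoxc4 from -0.74 to 1.29 between the stages in R42A. The difference of the MD effect ran from -2.23 to 0.93 for Hoxb2, -4.83 to 0.89 for Hoxb8, -0.40 to 0.25 for Hoxc13 and -3.95 to 0.05 for Hoxd3. The cause was not tested. Of 301 alternative values in ESC 272 kept direction and side of the threshold, and of 242 in neural cells 174 did. A lone clone left in a group was assumed to vary like the others. Depth limits the genes under 0.1 CPM, where a change can rest on a few reads.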
